A study of Mus musculus with 3 samples.

Results

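The transcripts described here come from 10 genes through which lymphocytes kill or alarm other cells: Gzma, Gzmb and Gzmk (granzymes A, B and K), Prf1 (perforin), Nkg7, Ifng (interferon gamma), Fasl (Fas ligand) and the CC chemokines Ccl3, Ccl4 and Ccl5. They were chosen by gene symbol and are 10 of the 31253 genes listed in every library. All 10 had at least 1 transcript count in the kept cells of each library. The rule itself uses the symbol and no measured value, although the genes were picked with earlier results of these data known. No member gene served as a cell type marker or as an input to the clustering.

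Cytotoxic lymphocytes store perforin and granzymes in granules. On contact with a target cell the granule is released, perforin opens the target membrane and granzymes enter and start its death, while Fas ligand on the lymphocyte surface acts through the death receptor Fas. The liver is rich in natural killer (NK) cells, type 1 innate lymphoid cells (ILC1) and resident T cells, all known sources of interferon gamma, and CCL3, CCL4 and CCL5 draw other leukocytes to the tissue.

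Cells of mouse liver were sequenced in droplets with the 10x Genomics chemistry that reads transcripts at their 3' end, in 3 libraries, 1 per group. The library FL_control carries the title GsdmdFL/FL with the treatment Ctrl, FL_IR the title GsdmdFL/FL with IR, and dHep_IR the title Gsdmd∆Hep with IR, and the genotype tags read WT, WT and gsdmd-ko. The design text gives irradiation with 30 Gy and harvest after 7 days. No unirradiated Gsdmd∆Hep library is among these 3, and all 3 carry the modified Gsdmd gene by title. The exposed body part, the animals' age and strain, the Cre driver, the deleted exons and whether a library came from 1 animal or a pool are not given in the sources used here. FL_IR against FL_control addresses irradiation, and dHep_IR against FL_IR addresses the labelled hepatocyte deletion under irradiation. Both comparisons share FL_IR. Each group has a single library and cells are not replicates, so groups could not be tested against each other.

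The libraries held 7265 to 8214 barcodes with 52858425 to 78694038 UMIs (unique molecular identifiers, each counting 1 captured transcript), and 6458, 6545 and 7261 cells were kept in FL_control, FL_IR and dHep_IR. Libraries shared 10 to 60 barcodes in pairs, and 31 to 66 kept cells per library carried a shared barcode. Gsdmd, the targeted gene, stood at 36.4, 7.21 and 36.9 UMIs per 1000000 (CPM) over all kept cells of FL_control, FL_IR and dHep_IR, so the low value was in the library labelled GsdmdFL/FL -IR and not in the library labelled Gsdmd∆Hep-IR. Hepatocyte-like cells numbered 104, 42 and 8 with 22, 2 and 1 Gsdmd UMIs. A sequence tag at the 3' end checks a deletion only if it lies within the deleted part. Gsdmd was also lowest in FL_IR in NK or ILC1-like cells (41.6, 8.75 and 23.4 CPM), CD8 T-like cells (22.9, 0 and 17.6), CD4 T-like cells (41.0, 8.57 and 28.1) and double-negative T-like cells (39.7, 0 and 12.9), from 0 to 2 UMIs in each class of FL_IR. Whether the labels of the 2 irradiated libraries were exchanged was not tested, so FL_IR and dHep_IR mean the libraries so labelled in every direction given below.

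Levels are raw UMIs summed over the cells of a class in a library, as CPM of that class's total. Intervals are 95% intervals, exact Poisson for a level, exact conditional for a ratio and exact Clopper-Pearson for a share of cells, and all cover counting error only. Classes were named from marker genes and are written as X-like. T-like cells with a UMI of Cd8a or Cd8b1 and none of Cd4 were taken as CD8 T-like, those with a UMI of Cd4 and none of Cd8a or Cd8b1 as CD4 T-like, and those with no UMI of the 3 genes as double-negative T-like. A double-negative call can therefore also be a missed transcript.

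The promoters of 4 members are shown because Ifng and Nkg7 were the 2 genes most like Gzmb in level over classes and libraries (given further on), while Gzma was more confined to NK or ILC1-like cells. Each run is the 250 bases before the gene's start in RefSeq on GRCm38.p6, 5' to 3' on the gene's strand. For Gzmb and Nkg7 that start differs from the gene positions given further on, which come from another annotation. The Nkg7 run, with its T-box match, ends inside the gene as placed there, and the Gzmb run begins some bases beyond its gene. Capitals mark matches to the motifs searched: GGTGTGA (T-box), TGTGGT (RUNX), TGANTCA (AP-1), TTCNNNGAA (GAS, an element for STAT factors) and TATAAA, the TATA box, on either strand, with no overlap between different motifs in these runs. The runs lie at chr13:113100982-113101231, minus strand (Gzma), at chr14:56262335-56262584, minus strand (Gzmb), at chr7:43436888-43437137, + strand (Nkg7) and at chr10:118440796-118441045, + strand (Ifng).
Gzma: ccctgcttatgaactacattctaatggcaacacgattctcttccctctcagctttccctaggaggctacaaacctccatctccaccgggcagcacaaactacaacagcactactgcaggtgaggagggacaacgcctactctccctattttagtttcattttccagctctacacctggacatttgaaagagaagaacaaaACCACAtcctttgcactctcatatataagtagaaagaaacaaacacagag
Gzmb: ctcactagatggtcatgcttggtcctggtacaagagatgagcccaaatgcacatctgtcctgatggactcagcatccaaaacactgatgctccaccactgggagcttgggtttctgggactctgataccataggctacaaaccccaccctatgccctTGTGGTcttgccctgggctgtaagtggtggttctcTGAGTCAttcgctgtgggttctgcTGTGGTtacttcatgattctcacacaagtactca
Nkg7: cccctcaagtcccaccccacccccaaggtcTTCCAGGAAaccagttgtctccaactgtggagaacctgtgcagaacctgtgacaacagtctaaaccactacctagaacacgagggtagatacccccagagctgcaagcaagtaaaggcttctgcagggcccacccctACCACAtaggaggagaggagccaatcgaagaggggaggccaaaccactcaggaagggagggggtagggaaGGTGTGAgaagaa
Ifng: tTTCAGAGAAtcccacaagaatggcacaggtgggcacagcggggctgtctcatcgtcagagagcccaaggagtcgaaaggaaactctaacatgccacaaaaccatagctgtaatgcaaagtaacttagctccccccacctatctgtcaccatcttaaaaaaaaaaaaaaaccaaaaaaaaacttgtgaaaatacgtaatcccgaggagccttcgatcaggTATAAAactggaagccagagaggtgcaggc

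The motif search covered windows from 250 bases before to 50 bases after the start, for the 8 members with an entry in the RefSeq table (Gzma, Gzmb, Gzmk, Prf1, Nkg7, Ifng, Fasl and Ccl3). The T-box letters were in Nkg7 and Gzmk, against 3.98% of all 32851 promoters of that length. The 250 bases before the Gzmk start in RefSeq (chr13:113180966-113181215, minus strand) lie well inside the gene as placed below (113171608 to 113225908). The Gzmk match is thus not before the start given there. The starts of Prf1 and Ccl3 differ by some bases. The RUNX letters were in Gzma, Gzmb, Prf1, Nkg7 and Ccl3, against 16.8% of promoters, and Gzmb held them at 2 places. The AP-1 letters were in Gzmb (7.81% of promoters), the GAS letters in Nkg7, Ifng and, at 38 to 46 after the start and so outside the printed run, Gzmb (8.30%), and TATAAA in Ifng at -30 to -25 (13.6%). A match is a description of the letters and not a binding site.

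The genes themselves are protein-coding in GENCODE vM21 on GRCm38. Ccl5, Ccl3 and Ccl4 lie between 83525778 and 83664683 on chromosome 11, and Gzma (113093825 to 113100981) and Gzmk (113171608 to 113225908) lie on chromosome 13. Gzmb lies on chromosome 14 (56258838 to 56262260), Ifng (118441046 to 118445892) and Prf1 (61297833 to 61304680) on chromosome 10, Nkg7 on chromosome 7 (43437073 to 43438249) and Fasl on chromosome 1 (161780689 to 161788495). Gzmk overlaps Esm1 on the opposite strand and Ifng overlaps Gm49751 on its own strand. The count of Ifng therefore rests on how the authors' counting assigned shared reads. For Gzmk this holds only if reads were counted without regard to strand.

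NK or ILC1-like cells held most UMIs of Gzma, Gzmb, Prf1 and Nkg7 in every library, but not of Gzmk. They gave 97.7%, 91.3% and 81.8% of the Gzma UMIs of FL_control, FL_IR and dHep_IR, 72.2%, 69.4% and 75.9% of Gzmb, and 86.4%, 73.7% and 86.9% of Prf1. Nkg7, a granule membrane protein, was more widely spread, with 55.6%, 54.3% and 62.2% in NK or ILC1-like cells. Gzmk was rare, with 25, 9 and 38 UMIs in the kept cells of the 3 libraries, of which CD8 T-like cells gave 52.0%, 11.1% and 84.2% and NK or ILC1-like cells 36.0%, 11.1% and 5.26%.

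**Figure D1:**
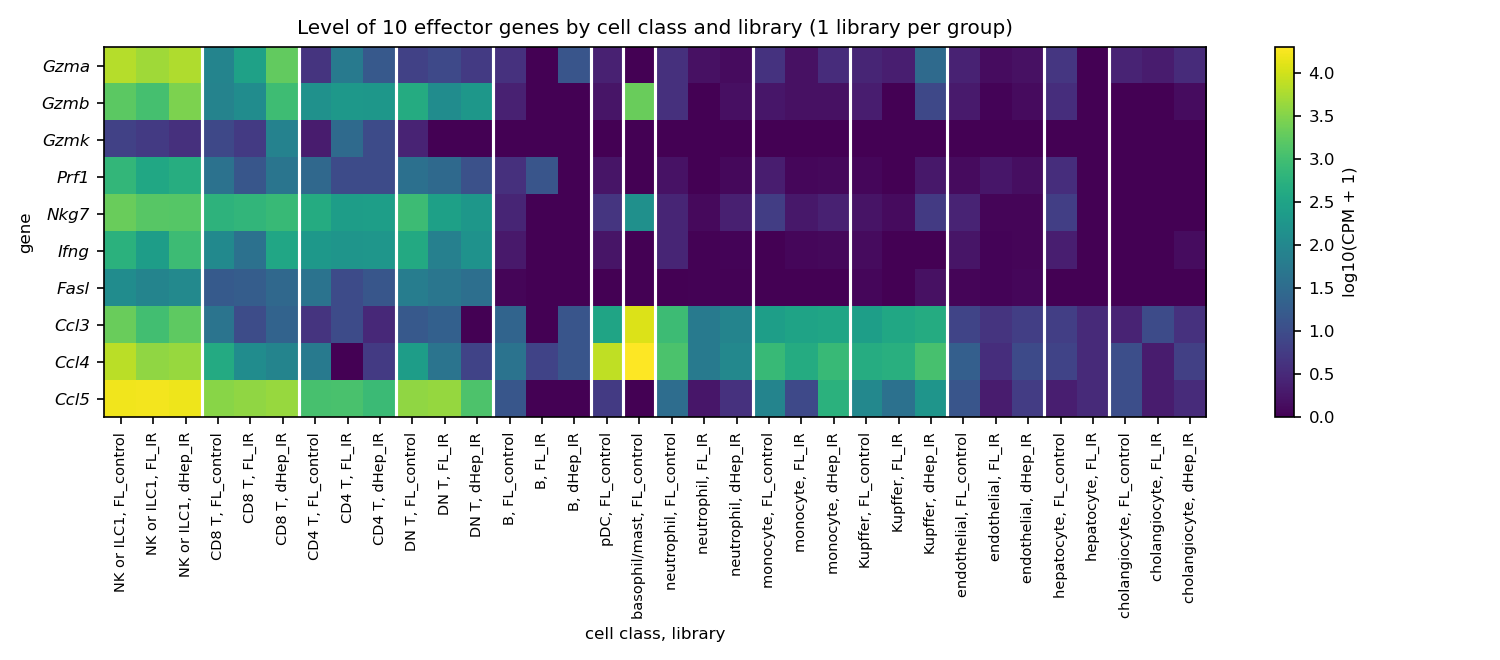
Level of each gene (log10 of CPM + 1, colour) in each cell class (columns, grouped by class and library) with at least 10 cells; 1 library per group. Ccl5 was highest in NK or ILC1-like cells, at 16314, 16540 and 15463 CPM, and Ccl3 and Ccl4 reach into the myeloid classes.

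**Figure D2:**
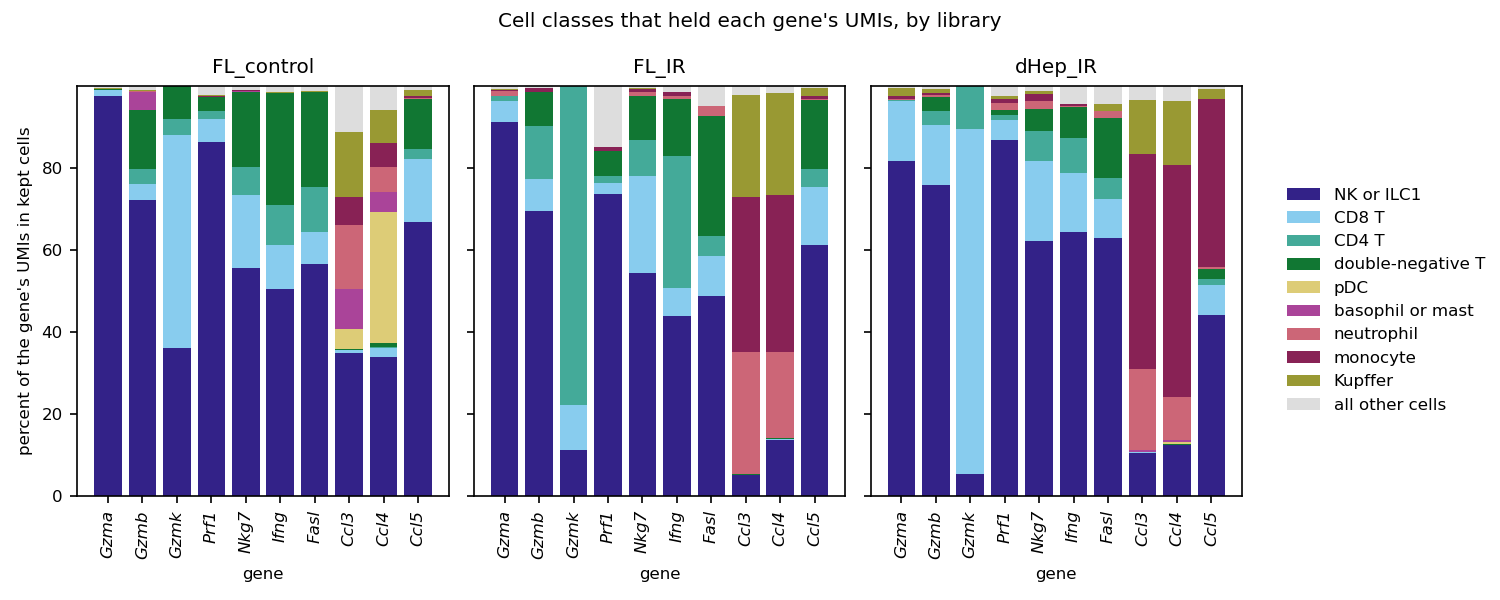
Share of each gene's UMIs (percent of the library's kept-cell UMIs of that gene, bars stacked by cell class) in each of the 3 libraries. Gzma lies almost wholly in NK or ILC1-like cells of FL_control (97.7%), while monocyte-like cells hold 56.8% of Ccl4 in dHep_IR.

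The chemokines came from more cells. NK or ILC1-like cells held 34.8%, 4.95% and 10.5% of Ccl3, 33.9%, 13.4% and 12.3% of Ccl4, and 66.7%, 61.1% and 44.04% of Ccl5. In dHep_IR, monocyte-like cells held 52.4% of Ccl3, 56.8% of Ccl4 and 41.1% of Ccl5. Plasmacytoid dendritic cell-like (pDC-like) cells, of which there were 151, 0 and 3, held 32.2% of the Ccl4 of FL_control.

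Summed over all kept cells, every member was lower in FL_IR than in FL_control. Gzma was at 216, 22.8 and 71.3 CPM in FL_control, FL_IR and dHep_IR, Gzmb at 74.2, 6.55 and 35.8, and Prf1 at 26.4, 2.10 and 5.26. Ifng was at 36.4, 2.36 and 13.5 CPM and Fasl at 7.08, 0.755 and 1.63. FL_IR was thus 9.50-fold lower than FL_control for Gzma (8.95 to 10.1), 12.6-fold for Prf1 (10.4 to 15.4) and 15.4-fold for Ifng (12.9 to 18.6), and dHep_IR lay between the other libraries for each of these 5 genes.

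In such sums fewer cells of a type and less RNA per cell cannot be told apart. NK or ILC1-like cells numbered 240, 36 and 92, which is 3.72%, 0.550% and 1.27% of the kept cells. T-like cells numbered 568, 109 and 193, or 8.80%, 1.67% and 2.66%. The order of the 3 libraries in these shares was the order of the whole-library levels of Gzma, Gzmb, Prf1, Nkg7, Ifng and Fasl. Gzmk had another order, at 0.518, 0.166 and 0.533 CPM.

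Within NK or ILC1-like cells the granule genes differed much less between libraries than in the whole-library sums. The 3 libraries had Gzma at 6534 CPM (6408 to 6662), 4937 (4654 to 5234) and 6088 (5904 to 6275), in the order FL_control, FL_IR, dHep_IR that is kept below. The intervals do not overlap, and FL_IR was 1.32-fold lower than FL_control (1.24 to 1.41).

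Gzmb in these cells was at 1657 CPM (1594 to 1722), 1080 (950 to 1224) and 2832 (2707 to 2961). FL_IR was lowest and dHep_IR highest: FL_IR was 1.53-fold lower than FL_control (1.35 to 1.76) and dHep_IR 2.62-fold above FL_IR (2.30 to 3.01). Over 12 alternative analyses the log2 ratio of Gzmb for dHep_IR against FL_IR ran from 1.35 to 1.67, while that for FL_IR against FL_control ran from -0.75 to 0.00.

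Prf1, the pore former that granzymes need, was at 705, 367 and 477 CPM. It was 1.92-fold lower in FL_IR than in FL_control (1.54 to 2.43), and dHep_IR lay 1.30-fold above FL_IR (1.02 to 1.67) and below FL_control. Nkg7 was at 2062, 1531 and 1490 CPM, with both irradiated libraries below FL_control and a ratio of 0.973 between them (0.861 to 1.10). Gzmk had 9, 1 and 2 UMIs in these cells, too few to compare.

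Ifng had the widest range of the 9 members measured in NK or ILC1-like cells. Its level was 568 CPM (532 to 607), 245 (185 to 318) and 906 (836 to 980), and the 3 intervals do not overlap. FL_IR was 2.32-fold lower than FL_control (1.77 to 3.10) and dHep_IR 3.70-fold above FL_IR (2.81 to 4.95), with log2 ratios of -1.43 to -0.87 and 1.69 to 2.51 over 12 alternatives. Fasl was at 124, 87.5 and 107 CPM from 193, 20 and 73 UMIs, and its ratios of 0.707 (0.423 to 1.12) and 1.22 (0.737 to 2.12) were not distinguishable from 1 at this depth.

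The 3 chemokines did not move alike in these cells. Ccl3 was at 2070, 1006 and 1702 CPM, 2.06-fold lower in FL_IR than in FL_control (1.7997 to 2.36) and 1.69-fold higher in dHep_IR than in FL_IR (1.47 to 1.96). Ccl4 was at 7097, 3849 and 4366 CPM, 1.84-fold lower in FL_IR (1.72 to 1.98) and 1.13-fold higher in dHep_IR than in FL_IR (1.05 to 1.22). Ccl5, the most abundant member, was at 16314, 16540 and 15463 CPM, with ratios of 1.01 (0.980 to 1.05) and 0.935 (0.901 to 0.970).

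Counted by cells, nearly every NK or ILC1-like cell held Ccl5 and most held granzymes. To compare shares at 1 depth, cells were thinned to 1000 UMIs, leaving out 3, 0 and 0 shallower NK or ILC1-like cells. A Gzmb UMI was then in 62.4%, 58.3% and 67.4% of cells (unthinned 87.9%, 80.6% and 85.9%, at median depths of 5389, 4884 and 5839.5 UMIs), a Prf1 UMI in 48.9%, 33.3% and 48.9%, and an Ifng UMI in 38.8%, 16.7% and 47.8%. In endothelial-like cells, which should lack these genes, the thinned Gzmb share was 0.0815%, 0.0346% and 0.0899% (unthinned 0.874%, 0.0666% and 0.203%, median depths 8416, 5651 and 5553 UMIs, 64, 112 and 117 cells left out). UMIs of Gzma, Gzmb and Prf1 together were in 163 of 240, 21 of 36 and 64 of 92 unthinned NK or ILC1-like cells.

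**Figure D3:**
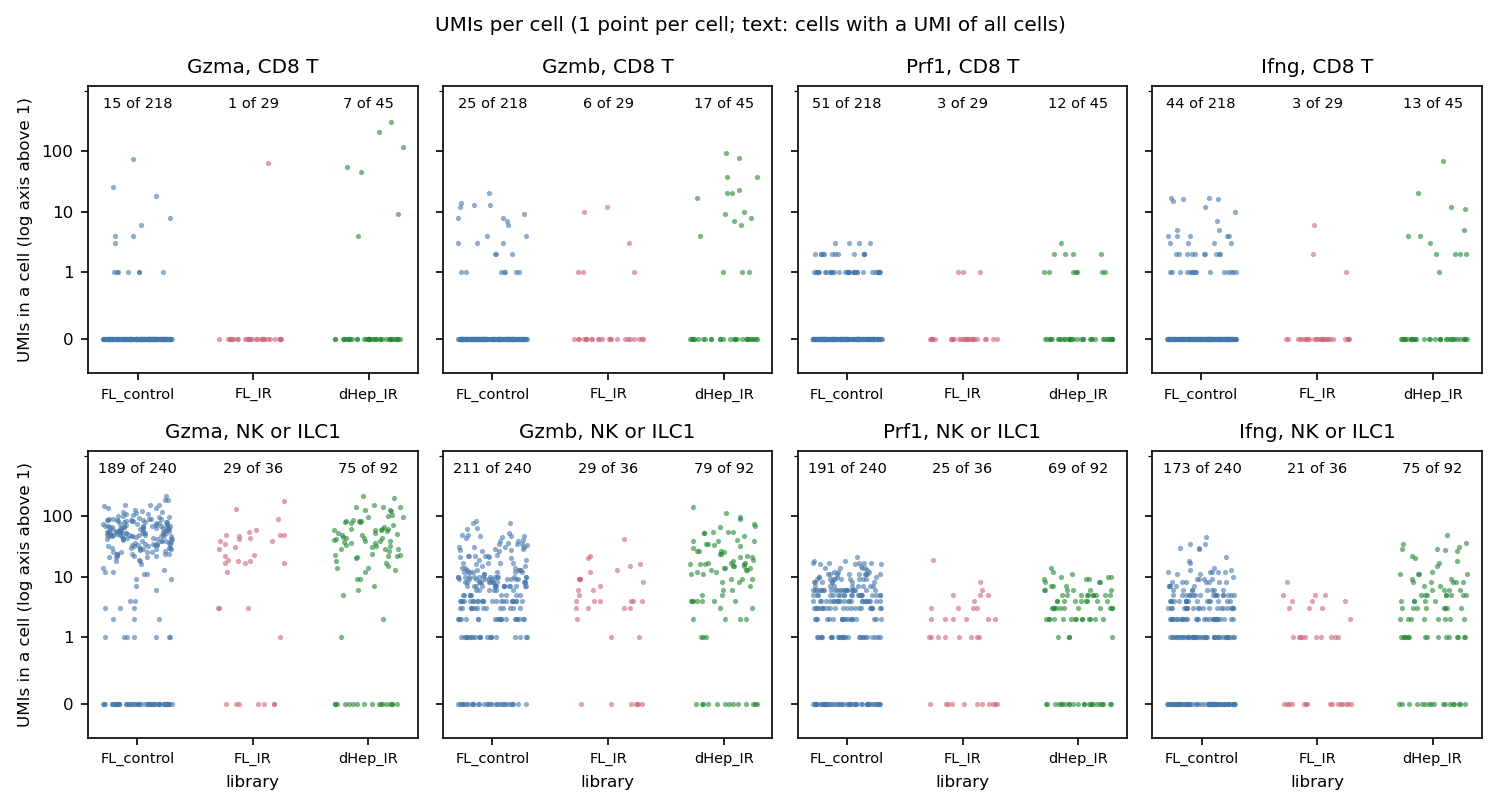
UMIs per cell (1 point per cell, log axis above 1) of Gzma, Gzmb, Prf1 and Ifng in CD8 T-like cells (top) and NK or ILC1-like cells (bottom) of each library, with the number of cells holding a UMI. Among CD8 T-like cells Gzma was in 15 of 218, 1 of 29 and 7 of 45 cells, while most NK or ILC1-like cells held it.

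The members of NK or ILC1-like cells were also counted against all genes. Of the 9 members with at least 20 UMIs over both libraries, 2 (Ifng and Ccl3) were at least 2-fold lower in FL_IR than in FL_control, against 14.2% of all 7461 genes measured that way, and 0 were at least 2-fold higher, against 5.82%. For dHep_IR against FL_IR, 0 of 9 were 2-fold lower (background 7.59%) and 2 of 9, Gzmb and Ifng, 2-fold higher (background 7.16%). TMM scaling, which sets the bulk of genes level between libraries, shifted this class by 0.08, 0.04 and -0.12 (log2), and under it 1 member was 2-fold lower in FL_IR. The members' median log2 ratio (0.5 counts added on each side) was -0.61 beside -0.13 for all genes in the former comparison and 0.30 beside -0.05 in the latter.

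The makeup of the NK or ILC1-like class also differed. A sub-cluster with high Eomes, the transcription factor of conventional NK cells, made up 63.8%, 97.2% and 87.0% of the class (153, 35 and 80 cells). A sub-cluster with low Eomes and with Cxcr6 and Itga1, genes of liver ILC1, had 65, 0 and 2 cells. The other 22, 1 and 10 cells of the class fell in a Cxcr6-high sub-cluster named as T-like. In FL_control the Eomes-low cells held 3049 CPM of Gzmb and 254 of Prf1, against 1517 and 1129 in the Eomes-high cells, so Gzmb was higher and Prf1 lower in them. Ccl4 was at 12146.5 CPM in the Eomes-low and 7271 in the Eomes-high cells of that library, while Ifng was at 613 and 610.

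Within the Eomes-high cells alone, the levels of FL_IR were again the lowest. Gzma was at 9508, 5320 and 8079 CPM in FL_control, FL_IR and dHep_IR, Gzmb at 1517, 1164 and 3612, and Prf1 at 1129, 396 and 635. Ifng was at 610, 259 and 1163 CPM and Ccl3 at 2558, 1084 and 2278. Prf1 was 2.85-fold lower in FL_IR than in FL_control (2.28 to 3.61) here, and Gzmb and Ifng of dHep_IR were 3.10-fold (2.72 to 3.56) and 4.49-fold (3.40 to 6.03) above FL_IR. This sub-cluster was chosen after the values had been seen.

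Other genes of NK function were counted by list in NK or ILC1-like cells, where 14.2% of all genes were at least 2-fold lower and 5.82% higher in FL_IR than in FL_control. Of the granule partners, 3 of 9 measured were at least 2-fold lower in FL_IR than in FL_control and 0 higher (median log2 ratio -0.32), among them Cst7, an inhibitor of granule cathepsins, at 52.5 against 147 CPM. Of the killer receptors, 4 of 10 were lower and 0 higher (median -0.37), with Klrg1 at 8.75 against 69.8 CPM and Cd226 at 39.4 against 210. Of the effector transcription factors, 2 of 11 were lower and 0 higher (median -0.46), a share near that of all genes: Zeb2 was at 56.9 against 227 CPM and Bhlhe40 at 276 against 759. Xcl1, a chemokine for cross-presenting dendritic cells, was at 306 against 1525 CPM, and Tnf at 56.9 against 18.6. The genes named were those with the largest ratios within their lists. The class had 228660 UMIs in the 36 cells of FL_IR, where 8.75 CPM is 2 UMIs.

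For dHep_IR against FL_IR, where 7.59% of all genes were lower and 7.16% higher, the granule partners had 1 of 7 lower and 0 higher (median -0.30), the killer receptors 0 of 9 in either direction (median -0.39), and the effector factors 2 of 11 higher (median 0.02). Those 2 were Batf, at 146 against 30.6 CPM, and Bhlhe40, at 599 against 276. Xcl1 was at 1276 against 306 CPM. Of the genes of cell division, 4 of 6 were at least 2-fold higher and 0 lower, with Stmn1 at 528 against 96.2 CPM and Top2a at 294 against 83.1. In the comparison of FL_IR with FL_control, 3 of these 6 were lower and 0 higher. The 6 genes had 5623, 341 and 2383 UMIs in the class (FL_control, FL_IR, dHep_IR), of which the Eomes-high cells held 1489, 120 and 880. Most of these UMIs thus lay outside the Eomes-high cells, in FL_IR in 1 cell that fell in the T-like sub-cluster. Within the Eomes-high cells the sum was at 1672, 565 and 1724 CPM, against 3602, 1491 and 3488 in the class.

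RNA of other cells moved with the libraries. The 6 neutrophil genes of the list summed to 42.3 CPM in NK or ILC1-like cells of FL_control (4 of 6 with a UMI), 12136 in FL_IR (6 of 6) and 969 in dHep_IR (6 of 6), and 1 cell of FL_IR held 88.9% of the FL_IR sum, which was 1560 CPM without it. In the same cells the 6 hepatocyte genes summed to 257, 424 and 65.9 CPM. The 7 T markers summed to 2029, 516 and 1054 CPM, all 7 with a UMI in each library. That sum includes the 22, 1 and 10 cells of the class that fell in a T-like sub-cluster. How much of it was RNA of other cells was not tested. The 9 NK or ILC1 markers summed to 4058, 3472 and 2540 CPM. Without lymphocytes that had at least 1% of their UMIs in neutrophil genes, the log2 ratios of Ifng were -1.02 for FL_IR against FL_control and 1.69 for dHep_IR against FL_IR; the part of other cells' RNA in the remaining values was not tested.

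**Figure D4:**
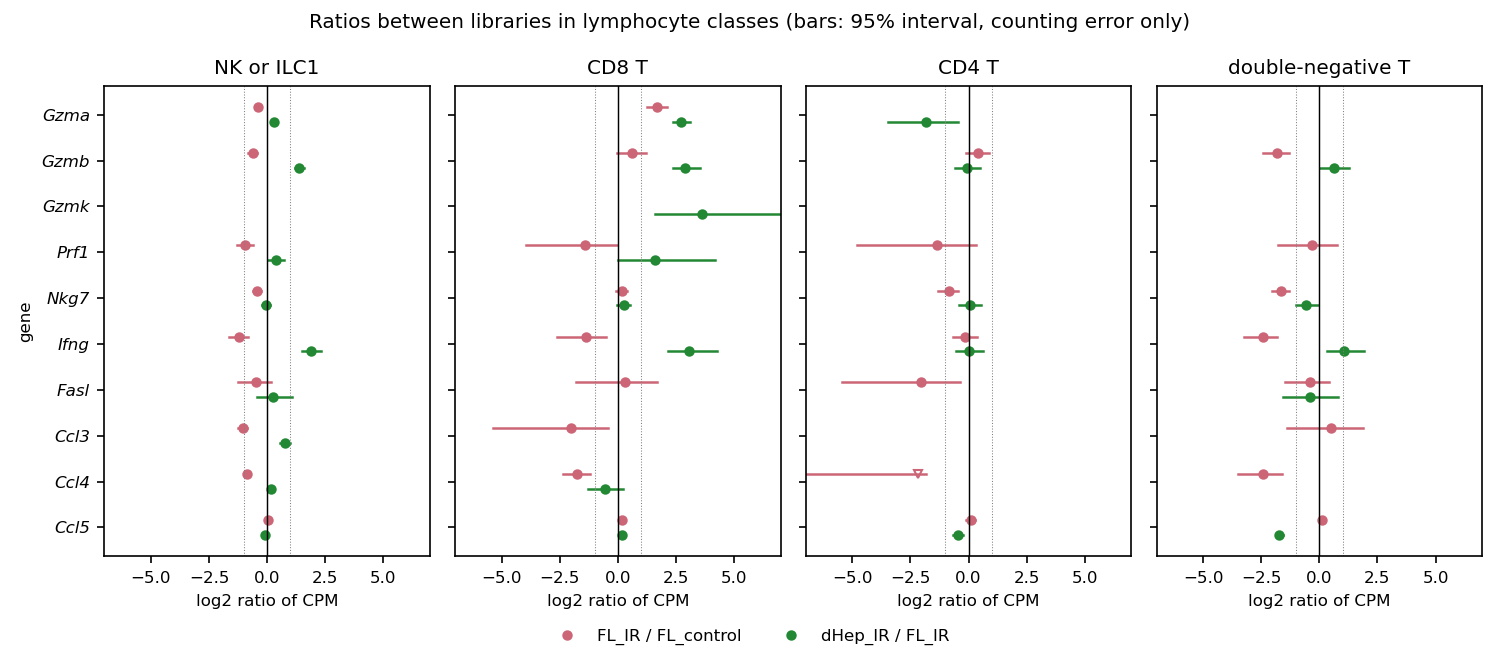
Log2 ratio of CPM for each gene (rows) in 4 lymphocyte classes (panels) for FL_IR over FL_control and dHep_IR over FL_IR, with 95% intervals of counting error; open triangles mark 0 UMIs in 1 library, drawn at 3 counts, dotted lines mark 2-fold, and intervals past the axis are cut off. In CD8 T-like cells the ratios of dHep_IR to FL_IR for Gzmb (2.89), Ifng (3.05) and Gzmk (3.62, from 32 against 1 UMI) lie past the 2-fold line.

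CD8 T-like cells were few in the irradiated libraries, 218, 29 and 45, and their granzyme UMIs sat in few cells. Gzmb had 82.1 CPM (69.0 to 96.8), 124 (82.5 to 179) and 934 (842 to 1034). The intervals of FL_IR and FL_control overlapped, whereas dHep_IR lay above both, 7.53-fold above FL_IR (5.12 to 11.5). Cells with a Gzmb UMI were 25 of 218, 6 of 29 and 17 of 45, or 11.5%, 20.7% and 37.8%, and after thinning to 1000 UMIs (2, 0 and 0 cells left out) 5.09%, 6.90% and 26.7%, at median depths of 7396, 7513 and 6918 UMIs. The log2 ratio of dHep_IR to FL_IR was 2.89 and ran from 1.68 to 3.36 over 11 alternatives.

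Gzma in CD8 T-like cells was at 87.9, 284 and 1869 CPM, from 150, 64 and 744 UMIs. All 64 UMIs of FL_IR came from 1 cell, and the top cell of dHep_IR held 303, so the 6.59-fold ratio of dHep_IR to FL_IR (5.10 to 8.64) rests on few cells. Its log2 value of 2.71 was -0.60 with marked doublets kept. Without the top cell of each library, and under a per-cell marker gate, FL_IR had 0 Gzma UMIs against 441 and 744 in dHep_IR, which at 3 counts for the 0 gives log2 ratios of at least 6.43 and 6.70. A Gzma UMI was in 15 of 218, 1 of 29 and 7 of 45 cells.

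Gzmk, which marks a subset of effector memory CD8 T cells, was at 7.62, 4.43 and 80.4 CPM from 13, 1 and 32 UMIs, and the ratio of dHep_IR to FL_IR was 18.1 with a wide interval (3.03 to 738). Prf1 was at 41.6, 13.3 and 45.2 CPM from 71, 3 and 18 UMIs. FL_IR was 3.13-fold below FL_control for Prf1 (1.03 to 15.5), and the ratio of dHep_IR to FL_IR, 3.40, had an interval that included 1 (0.992 to 18.0). Nkg7 differed little, with 607, 678 and 804 CPM.

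Ifng in CD8 T-like cells was at 110, 39.9 and 347 CPM, from 187, 9 and 138 UMIs. It was 2.75-fold lower in FL_IR than in FL_control (1.42 to 6.101) and 8.69-fold higher in dHep_IR than in FL_IR (4.45 to 19.4). The top cell of dHep_IR held 70 of the 138 UMIs, and over 11 alternatives, leaving out that cell included, the log2 ratio ran from 2.69 to 3.46. Fasl was at 15.8, 17.7 and 27.6 CPM from 27, 4 and 11 UMIs, and no difference was detectable at this depth.

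The chemokines in CD8 T-like cells went other ways. Ccl4 had 421 CPM, 124 and 85.4, with both irradiated libraries below the control: FL_IR was 3.39-fold lower (2.33 to 5.15) and the ratio of dHep_IR to FL_IR was 0.688 (0.405 to 1.18). Ccl3 was at 43.96, 8.87 and 22.6 CPM from 75, 2 and 9 UMIs. RNA of myeloid cells, which also held Ccl3 and Ccl4, was likewise lower in these cells of both irradiated libraries (values given further on). Ccl5 was at 3444, 3915 and 4378 CPM, with ratios of 1.14 (1.06 to 1.22) and 1.12 (1.03 to 1.21).

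Of the 9 members measured in CD8 T-like cells for FL_IR against FL_control, 4 were at least 2-fold lower (Prf1, Ifng, Ccl3 and Ccl4; background 10.0% of genes) and 1, Gzma, at least 2-fold higher (background 7.03%). For dHep_IR against FL_IR, 0 of 8 were 2-fold lower (background 4.53%) and 5 of 8, namely Gzma, Gzmb, Gzmk, Prf1 and Ifng, 2-fold higher (background 9.95%). With 1 and 3 UMIs in FL_IR, Gzmk and Prf1 reached the minimum of 20 UMIs only through dHep_IR (32 and 18). They could therefore only be counted as higher, and the Gzma UMIs of FL_IR lay in 1 cell. The count is a description of these 2 libraries. The members' median log2 ratio was 0.16 beside 0.03 for all genes and 2.15 beside 0.07, respectively. With marked doublets kept, 2 members were 2-fold higher in dHep_IR than in FL_IR, and with a minimum of 100 UMIs 3.

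The CD8 T-like cells that held these transcripts carried T cell transcripts and no Ncr1. All 7 Gzma-positive and all 17 Gzmb-positive cells of dHep_IR had a Cd3d, Cd3e or Cd3g UMI. Ncr1, the NK receptor NKp46, had 0 UMIs in CD8 T-like cells of all 3 libraries. Cd3d, Cd3e and Cd3g were among the markers that named the T-like cluster, and Ncr1 among those of NK or ILC1-like cells. Both results were thus largely set by how the class was made, and cells without these transcripts were not compared. The 9 NK or ILC1 markers summed to 576, 763 and 528 CPM in CD8 T-like cells. Of these markers 7, 5 and 5 had a UMI, with Ncr1 and Klra4 at 0 throughout. All 3 of Gzma, Gzmb and Prf1 were in 3 of 218, 0 of 29 and 5 of 45 cells before thinning. In the same cells thinned to 1000 UMIs they were together in 0 of 216, 0 of 29 and 0 of 45. At that depth the exact intervals reach up to 1.69%, 11.9% and 7.87% of cells with a UMI of all 3. The 11.9% also holds for the 0 of 29 before thinning. These limits say nothing of cells that express the 3 genes. A UMI of Mki67, Top2a, Stmn1, Ube2c or Birc5 was in 5 of 25, 0 of 6 and 10 of 17 unthinned Gzmb-positive CD8 T-like cells. The share among Gzmb-negative cells is not given, so no tie between Gzmb and division can be read from these counts.

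Other genes of activation, residence and division were also compared in CD8 T-like cells of dHep_IR against FL_IR, where 4.53% of all genes were lower and 9.95% higher. Pdcd1, the checkpoint receptor PD-1, was at 70.3 against 0 CPM and Cxcr6 at 85.4 against 8.87. Cd160 was at 116 against 26.6 and Id2, a factor of effector differentiation, at 452 against 191. These genes were named for the size of their ratio within their lists. The class had 225532 UMIs in the 29 cells of FL_IR, where 8.87 CPM is 2 UMIs and 13.3 CPM is 3. Of the 6 cycling genes 3 were measured, and these 3 were at least 2-fold higher (Stmn1 at 191 against 8.87 CPM, Hmgb2 at 1256 against 266). The 6 genes had 643 UMIs in dHep_IR and 64 in FL_IR, nearly all of the 64 from Hmgb2. The other measured cycling genes, Pdcd1 and Cxcr6 reached the minimum of 20 UMIs only through dHep_IR. They could therefore only be counted as higher. Of the naive and recirculation genes 0 of 8 passed 2-fold in either direction, while 8 of 8 lay below 0 (median -0.43). Among them Lef1 was at 198 against 381 and Il7r at 472 against 825. The granule partners had 1 of 7 higher and 0 lower (median 0.00). The sub-cluster of Cxcr6-high T-like cells held 21.6%, 20.7% and 35.6% of CD8 T-like cells of FL_control, FL_IR and dHep_IR.

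CD4 T-like cells (144, 36 and 62) showed levels of Gzmb and Ifng that overlapped between libraries. Gzmb was at 150, 197 and 190 CPM and Ifng at 196, 176 and 179, with ratios of dHep_IR to FL_IR of 0.963 (0.667 to 1.41) and 1.02 (0.693 to 1.52). Nkg7 was at 448, 244 and 255 CPM and 1.83-fold lower in FL_IR than in FL_control (1.38 to 2.46). Ccl4 was at 58.1, 0 and 4.32 CPM, so FL_IR was at least 4.52-fold lower than FL_control when its 0 is taken as 3 counts. Ccl5 was at 1113, 1187 and 859 CPM.

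Double-negative T-like cells (200, 44 and 84) had lower Gzmb, Nkg7 and Ifng in both irradiated libraries than in FL_control. Gzmb had 435 CPM (398 to 474), 121 (81.7 to 173) and 188 (150 to 232). Nkg7 was at 888, 278 and 190 CPM, and Ifng at 405, 72.6 and 155. The control stood above both irradiated libraries for all 3 genes, and FL_IR was lower by 3.59-fold for Gzmb (2.49 to 5.38), 3.19-fold for Nkg7 (2.5004 to 4.13) and 5.57-fold for Ifng (3.49 to 9.48).

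Prf1 and Fasl were low in double-negative T-like cells, at 37.2, 28.2 and 10.8 CPM and 66.7, 48.4 and 36.7 CPM. Gzma and Gzmk had at most 7 UMIs in any library there. Ccl4 was at 247, 44.4 and 6.47 CPM, 5.56-fold lower in FL_IR than in FL_control (3.06 to 11.3). Ccl5 followed another order, with 3923, 4200 and 1278 CPM, so that dHep_IR was 3.29-fold below FL_IR (2.97 to 3.64). Ifng of dHep_IR was 2.14-fold above FL_IR (1.26 to 3.81).

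In these cells 4 of 8 measured members (Gzmb, Nkg7, Ifng and Ccl4) were at least 2-fold lower in FL_IR than in FL_control, against 11.8% of genes, and 0 of 8 higher, against 5.67%. For dHep_IR against FL_IR 1 of 5, Ccl5, was lower (background 4.21%) and 1 of 5, Ifng, higher (background 4.18%). The members' median log2 ratio was -1.04 beside -0.07 for all genes and -0.42 beside -0.05. Under a per-cell marker gate in place of clusters 9 of 9 measured members were 2-fold lower in FL_IR than in FL_control, as were 24.8% of all genes.

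Genes of liver residence were compared in the same cells, where 11.8% of all genes were at least 2-fold lower and 5.67% higher in FL_IR. Of 5 measured, 3 were at least 2-fold lower in FL_IR than in FL_control and 0 higher (median -1.48), with Cxcr6, the receptor that holds lymphocytes in the liver sinusoids, at 36.3 against 368 CPM and Itga1 at 12.1 against 75.2. Of 10 effector factors 6 were lower and 1 higher (median -1.17), with Tbx21, which encodes T-bet, at 32.3 against 90.4. Xcl1 was at 28.2 against 505 CPM and Cd160 at 28.2 against 208. Il7r, a receptor of naive and memory T cells, was at 1146 against 447. These genes were named for the size of their ratio within their lists. The class had 247886 UMIs in the 44 cells of FL_IR, where 12.1 CPM is 3 UMIs and 28.2 CPM is 7.

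The share of double-negative T-like cells in the Cxcr6-high sub-cluster was 72.5%, 56.8% and 34.5% in FL_control, FL_IR and dHep_IR, and the share in the Lef1-high sub-cluster was 27.0%, 43.2% and 65.5%. All Cxcr6-high cells (270, 41 and 85, of which 22, 1 and 10 had been classed as NK or ILC1-like) held Gzmb at 471, 289 and 741 CPM and Ifng at 491, 181 and 413. The Lef1-high cells (319, 69 and 118) held Gzmb at 3.15, 31.8 and 31.6 CPM. Ccl5 was at 5485, 5903 and 3554 CPM in the Cxcr6-high and at 807, 1018 and 224 in the Lef1-high cells. The part of this makeup in the ratios of the double-negative class was not tested.

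Neutrophil RNA was also higher in T-like cells of the irradiated libraries. The 6 neutrophil genes summed to 123, 1108 and 904 CPM in CD8 T-like, 35.3, 1123 and 1325 in CD4 T-like and 38.8, 1186 and 1090 in double-negative T-like cells. Neutrophil-like cells held 29.9% of the Ccl3 and 21.0% of the Ccl4 UMIs of FL_IR. In CD8 T-like cells of FL_control 1 cell held 73.3% of that sum. The 12 genes of dissociation stress summed to 5413, 6660 and 6079 CPM in CD8 T-like cells and to 10010, 7360 and 8536 in NK or ILC1-like cells, and the part of both lists in the results was not tested. Myeloid RNA went the other way. Lyz2, Csf1r, Adgre1, Cd68, Clec4f and Cd5l summed to 437, 35.5 and 35.2 CPM in CD8 T-like cells. Their sums were 131, 51.4 and 17.3 in CD4 T-like, 384, 76.6 and 36.7 in double-negative T-like and 400, 96.2 and 35.1 in NK or ILC1-like cells. The part of myeloid RNA in the Ccl3 and Ccl4 values of lymphocytes was not tested.

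Outside the lymphocytes the chemokines held most of the members' UMIs. Other members were seen there in places, among them Gzmb at 2060 CPM in 14 basophil or mast-like cells of FL_control. In neutrophil-like cells (459, 2342 and 1849) Ccl3 was at 874, 55.5 and 87.7 CPM and Ccl4 at 1227, 55.1 and 101. FL_IR was 15.7-fold lower than FL_control for Ccl3 (14.6 to 17.0) and 22.3-fold for Ccl4 (20.8 to 23.9). The cells came from different clusters, cluster 3 in FL_control and clusters 25, 26 and 27 in the irradiated libraries, and TMM scaling moved this class by 0.60, -0.25 and -0.34 on the log2 scale.

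Monocyte-like cells (224, 475 and 1165) held Ccl3 at 259, 314 and 334 CPM and Ccl4 at 781, 451 and 792. Ccl5 had 84.8, 7.89 and 568 CPM, and dHep_IR was 72.1-fold above FL_IR (53.6 to 99.2). A Ccl5 UMI was in 35 of 224, 5 of 475 and 169 of 1165 cells, and 1 cell of dHep_IR held 768 of its 9870 UMIs while 1 cell of FL_IR held 40 of its 44. Cluster 9 held most of the class in FL_control, cluster 12 most in FL_IR, and both were filled in dHep_IR. In a finer clustering that set conventional dendritic cell-like cells apart, monocyte-like cells had 23.7, 7.76 and 511 CPM of Ccl5, and dendritic cell-like cells 138 in FL_control and 1666 in dHep_IR.

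Kupffer-like cells, the liver's resident macrophages, had Ccl3 at 260, 369 and 436 CPM and Ccl4 at 464, 521 and 1125. Ccl4 was 2.16-fold higher in dHep_IR than in FL_IR (2.04 to 2.29), and Ccl5 was at 101, 39.4 and 173 CPM. These cells lay in cluster 14 in FL_control and in cluster 4 in the irradiated libraries. Ccr1, a receptor for these chemokines, was at 1936, 630 and 448 CPM in neutrophil-like cells.

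**Figure D5:**
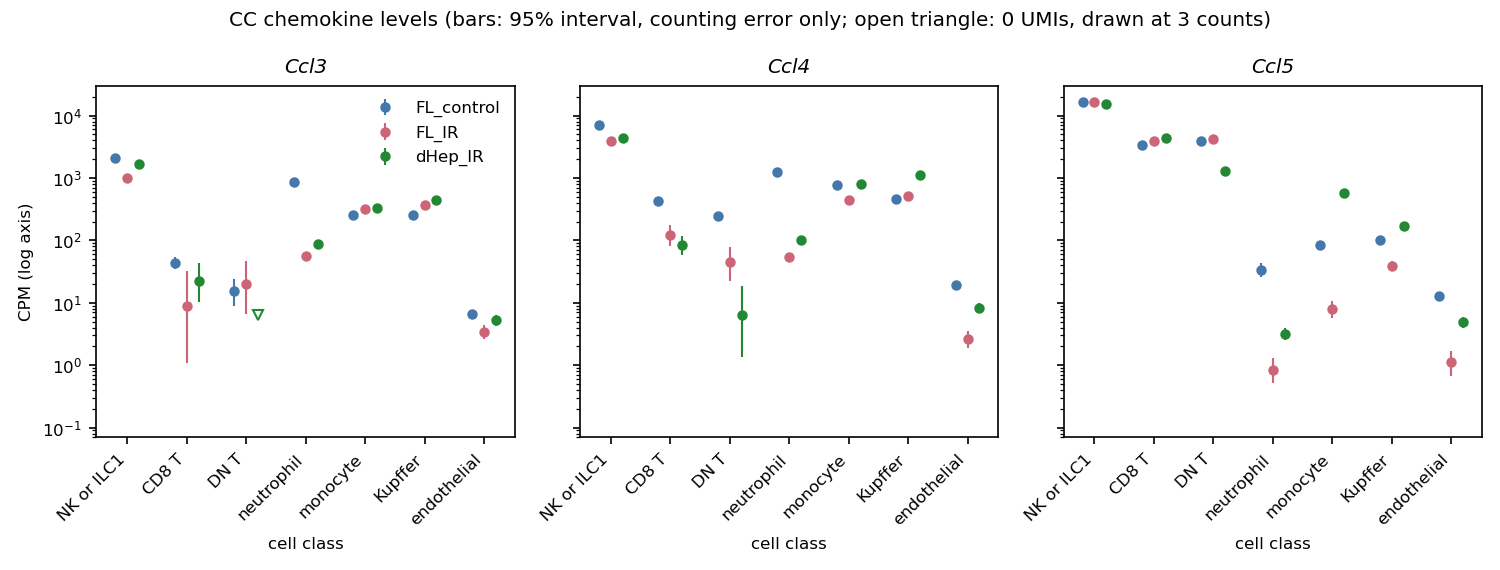
Level of Ccl3, Ccl4 and Ccl5 (CPM, log axis) in 7 cell classes of each library, with 95% intervals of counting error; an open triangle marks 0 UMIs, drawn at 3 counts. Ccl5 is at 16314, 16540 and 15463 CPM in NK or ILC1-like cells, while in monocyte-like cells it is at 84.8, 7.89 and 568 CPM.

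Over 33 profiles (classes with at least 20 cells, in each library) and 13512 genes, the gene most like each member was sought by Pearson correlation of log2(CPM + 1). The profiles share libraries and depth, so the values are descriptions. Gzmb and Ifng were most like each other (0.980), Nkg7 was most like Ctsw (0.984) and Tbx21 (0.982), and Fasl most like Tbx21 (0.980). Gzma was most like Eomes (0.933), Prf1 most like Klrc2 (0.930), a killer receptor gene, and Ccl5 most like Nkg7 (0.923). Ccl3 and Ccl4 were most like each other (0.894). Next came Tyrobp, a gene of the killer receptor list, for Ccl3 (0.835) and Itgax for Ccl4 (0.854). Gzmk, the rarest member, had its best match at 0.804 with Serp2.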

How the data were processed

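Whole-number UMI counts for each gene in each barcode were deposited by the authors. The submitters' processing notes list Cell Ranger 6.1.1, CASAVA 1.8, Seurat 4.0.3 and the build mm10, without an annotation version. The members and the gene lists were chosen with earlier results of these data known. Cells with at least 500 UMIs, 250 genes and at most 25% mitochondrial UMIs were kept (6618, 6780 and 7552), and Scrublet in scanpy 1.11.5 (expected rate 6%) removed 160, 235 and 291 as doublets. The 3 libraries were clustered together (2000 variable genes without the members, 30 components, 15 neighbours, Leiden resolution 1) without batch integration, and free RNA was not removed. Clusters were named from marker lists.

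For each class the counts of a library's cells were added up, and intervals came from scipy 1.17.1. Folds against 0 UMIs took 3 counts in place of the 0. A class was compared with at least 20 cells in both libraries. A gene counted as measured with at least 20 UMIs over both. All members were named, with the 3 genes most like each by Pearson correlation, and from each list up to 4 measured genes per comparison and class with the largest log2 ratio in size and an interval that excludes 1. The sub-clusters were chosen after their values were seen. Alternatives were TMM factors (edgeR 4.0.16), mean per-cell CPM, another prior count, stricter cell filters, doublets kept, members among the variable genes, resolution 2, a per-cell marker gate, deeper double-negative cells and other UMI minimums. After the data had been seen, leaving out the top cell, shared barcodes or neutrophil-rich lymphocytes and using Eomes-high cells were added. The calculations were tested on simulated counts.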

Additional observations from a re-analysis of the deposited data

Results flagged for a closer look

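Gzma differed in direction between T-like subsets in the comparison of dHep_IR with FL_IR. In CD8 T-like cells its log2 ratio was 2.71 and in CD4 T-like cells -1.84. The values drew attention because the 2 subsets of the same libraries went opposite ways, and the difference between them was not tested. In CD8 T-like cells the 64 UMIs of FL_IR came from 1 cell, and in CD4 T-like cells FL_IR had 13 UMIs, 11 of them in 1 cell, against 7 in dHep_IR.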

How the results depend on the processing

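No paired analysis was possible because each group has 1 library. Of 1050 alternative values over 97 ratios, 839 stayed within the ratio's counting interval, 203 lay outside it and 8 changed sign. Without shared barcodes all 97 stayed within. The log2 ratio of Gzma in T-like cells for FL_IR against FL_control, 1.42, was -0.037 without the top cell, -1.93 with the members among the variable genes and -4.95 under the per-cell marker gate. In CD8 T-like cells it was 1.70. There FL_IR had 0 Gzma UMIs without the top cell and under the gate, so the computed -4.30 and -6.77 depend on the 0.5 counts added, and at 3 counts for the 0 they are -1.70 and -4.18. With doublets kept, dHep_IR against FL_IR gave -0.91 for Gzma in T-like cells, -0.60 in CD8 T-like cells and -0.25 for Ccl5 in neutrophil-like cells. The cause was not tested.

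Counts of members past 2-fold moved as follows. In CD8 T-like cells, FL_IR against FL_control had 2 lower with a minimum of 100 UMIs, and 0 higher without the top cell or under the gate, and dHep_IR against FL_IR had 1 lower without the top cell, 2 higher with doublets kept and 3 higher with a minimum of 100 UMIs. In double-negative T-like cells, FL_IR against FL_control had 7 lower with the members among the variable genes and 9 under the gate. There dHep_IR against FL_IR had 0 lower under both of these and 4 with no minimum, and 2 higher with stricter filters, with the members among the variable genes and at resolution 2, 3 under the gate and 0 with a minimum of 100 UMIs. In NK or ILC1-like cells, FL_IR against FL_control had 1 lower with TMM factors, per-cell means or doublets kept, and 4 without the top cell or at resolution 2. The few lymphocytes of the irradiated libraries limit all of these values, and no interval covers variation between animals.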

Other observations

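Outside the lymphocytes some member UMIs lay in few cells of a class, while others were spread over most of its cells. Of 158 Gzmb UMIs in the 14 basophil or mast-like cells of FL_control, 136 were in 1 cell, while Ccl4 was at 20056 CPM and Ccl3 at 11684 CPM in that class with a UMI of each in 92.9% of its cells. Of 102 Gzma UMIs in Kupffer-like cells of dHep_IR, 101 were in 1 cell, and all 26 Gzmb and 15 Nkg7 UMIs of the class there were also in 1 cell. In pDC-like cells of FL_control a Ccl4 UMI was in 142 of 151 cells, at 7622 CPM, beside 330.7 CPM of Ccl3 and 4.35 of Ccl5.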
